A study of Homo sapiens with 6 samples.

Results

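The proteasome gene promoters of OCIAML3 cells were described in 4 lists of histone mark peaks. OCIAML3 is a long-established human cell line from acute myeloid leukemia (AML), with a heterozygous mutation of NPM1 (mtNPM1). The members were the autosomal protein-coding genes whose symbol starts with PSM, then a letter from A to G and a number. There were 49 of them, out of 19229 autosomal protein-coding genes annotated for H3K27Ac and 18777 annotated for H3K4me3. Of the 49, 47 encode subunits, activators, an inhibitor or assembly chaperones of the proteasome, and PSMC3IP and PSME3IP1 matched by symbol alone and encode no subunit. A further match, PSMD10, lies on the X chromosome and was left out by the autosomal rule.

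Cells were given either a control guide (sgNeg) or a guide directed at mtNPM1 (sgNpm1A) for CRISPR-Cas9 editing and, per the labels, were grown for 3 days, whereas the study's text gives a longer time for these libraries. Both groups were transfected cells of the same line, and the peak lists do not show how many cells were edited. Chromatin was precipitated with an antibody against acetylated lysine 27 of histone H3 (H3K27Ac), found at active promoters and enhancers, or against trimethylated lysine 4 of histone H3 (H3K4me3), found at active promoters. There was 1 library per guide RNA and mark, without replicates, and 2 input libraries were not analysed here. Differences between sgNeg and sgNpm1A are therefore differences between pairs of libraries, and no p-value is given. All labels name OCIAML3, but the deposited H3K27Ac lists carry another name tag than the H3K4me3 lists, and its meaning was not stated. If that tag stood for another line, the values of both marks would not come from the same cells.

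The proteasome is the barrel-shaped protease that degrades ubiquitin-tagged proteins. Its 20S core is built of rings of alpha subunits (PSMA genes) around rings of beta subunits (PSMB genes), of which PSMB5, PSMB6 and PSMB7 encode the catalytic ones. In immune cells, and after interferon gamma, the immunoproteasome subunits PSMB8, PSMB9 and PSMB10 take the places of PSMB5, PSMB6 and PSMB7, respectively, and alter the peptides produced for MHC class I. The 19S cap holds ATPases (PSMC genes) that unfold substrates and non-ATPase subunits (most PSMD genes), some of which bind or deubiquitinate them. PSME genes encode other activators, PSMF1 an inhibitor, and PSMG genes chaperones of core assembly.

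The lists held 327715 peaks for sgNeg H3K27Ac, 317059 for sgNpm1A H3K27Ac, 353628 and 106641 for H3K4me3 with the same guides. The lists hold no read totals, so that depth is known only as far as the H3K4me3 pileups show it. Among 6 genes typical of myeloid leukemia cells (CD33, MPO, SPI1, CEBPA, HOXA9 and MEIS1), all 6 had a promoter peak in both sgNeg lists, 5 in sgNpm1A H3K27Ac and none in sgNpm1A H3K4me3. Among 8 markers of other lineages, 6 had a sgNeg H3K27Ac peak, at a percentile of at most 80.3, and 3 had a sgNeg H3K4me3 peak. In sgNpm1A, 5 of the 8 had an H3K27Ac peak, at a percentile of at most 90.7, and EPCAM and MYOD1 had an H3K4me3 peak, at 60.5 and 88.6. Over all promoters, 81.2% had a peak in sgNeg H3K27Ac, 59.7% in sgNpm1A H3K27Ac, 70.4% in sgNeg H3K4me3 and 9.93% in sgNpm1A H3K4me3. The sgNpm1A counts of these small groups do not stand apart from these shares. NPM1, the targeted gene, had promoter peaks in both sgNeg lists and none in either sgNpm1A list, and a peak list does not show the edit itself.

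A promoter was taken as 1 kb on either side of any annotated transcript start, and the peak of highest fold enrichment there was the promoter peak. Because fold enrichment is scaled within each library, a peak was given its percentile within its own list, from 0 for no peak to 100 for the highest. Positions are on GRCh37 for H3K27Ac and on GRCh38 for H3K4me3, the builds that the coordinates of the lists require.

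The sequences of 5 promoters are shown because the results turn on the immunoproteasome genes, a constitutive counterpart and an interferon-responsive activator gene. Each is the 250 bases before a RefSeq transcript start (GRCh38.p14), written 5′ to 3′ on the strand of the gene, and capitals mark motif matches. PSMB8 lies at chr6:32844680-32844929 (minus strand) and PSMB9 at chr6:32853942-32854191 (plus strand), PSMB10 at chr16:67936851-67937100 (minus strand), PSMB5 at chr14:23035221-23035470 (minus strand) and PSME2 at chr14:24146611-24146860 (minus strand).
PSMB8: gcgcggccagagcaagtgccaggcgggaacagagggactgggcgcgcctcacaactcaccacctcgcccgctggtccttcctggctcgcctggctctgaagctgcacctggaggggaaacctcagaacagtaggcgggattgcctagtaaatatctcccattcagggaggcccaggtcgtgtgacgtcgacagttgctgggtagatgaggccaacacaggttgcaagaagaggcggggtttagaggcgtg
PSMB9: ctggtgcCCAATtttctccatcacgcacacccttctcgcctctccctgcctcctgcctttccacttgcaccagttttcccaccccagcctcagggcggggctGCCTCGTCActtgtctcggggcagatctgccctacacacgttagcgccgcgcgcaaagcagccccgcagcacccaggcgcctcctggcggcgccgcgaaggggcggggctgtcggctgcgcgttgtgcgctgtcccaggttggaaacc
PSMB10: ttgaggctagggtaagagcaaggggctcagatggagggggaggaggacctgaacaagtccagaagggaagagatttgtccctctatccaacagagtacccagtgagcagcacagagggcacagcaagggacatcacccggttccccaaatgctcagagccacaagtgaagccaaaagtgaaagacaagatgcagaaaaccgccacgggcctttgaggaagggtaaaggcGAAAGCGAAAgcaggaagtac
PSMB5: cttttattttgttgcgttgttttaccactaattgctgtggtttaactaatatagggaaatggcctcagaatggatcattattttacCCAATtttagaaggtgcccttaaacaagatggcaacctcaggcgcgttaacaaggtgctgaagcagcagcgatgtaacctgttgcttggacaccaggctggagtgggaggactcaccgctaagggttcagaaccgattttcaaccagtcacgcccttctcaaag
PSME2: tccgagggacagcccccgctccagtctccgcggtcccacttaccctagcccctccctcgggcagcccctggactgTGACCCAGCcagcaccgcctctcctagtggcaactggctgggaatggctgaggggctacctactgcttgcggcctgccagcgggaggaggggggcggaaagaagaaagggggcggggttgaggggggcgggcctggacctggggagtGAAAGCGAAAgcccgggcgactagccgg

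In the PSMB10 sequence the capitals are a core of the interferon-stimulated response element that starts 21 bp before the transcript start. PSME2 holds the same core, 28 bp before its start, and a core of the antioxidant response element 175 bp before it. In PSMB9 they are an antioxidant response element core at 148 bp and a CCAAT box at 243 bp, and in PSMB5 a CCAAT box at 164 bp. No searched motif matched the printed PSMB8 sequence. RefSeq gives PSMB8 and PSMB5 a further start each, whose upstream bases are not printed. By position these further starts match the canonical starts annotated for H3K27Ac, so the printed PSMB8 and PSMB5 sequences lie before other starts. A gamma-activated site lies 65 bp before the further start of PSMB8, and 2 lie before that of PSMB5, at 158 and 15 bp. The counts over genes below use the first listed window of each gene, so these gamma-activated sites are not among them.

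Of the 49 proteasome genes, 43 had a RefSeq promoter window, which runs from 250 bases before to 50 bases after the start, and 8 motifs were searched on both strands in these windows of 300 bases. The interferon-stimulated response element core was found at 6 of the 43 (13.95%), against 3.17% of all 15101 windows. These 6 were PSMA4, PSMB4, PSMB10, PSME1, PSME2 and PSMG4. The antioxidant response element core (TGACNNNGC), recognised by the factors NFE2L1 and NFE2L2 that are known to raise proteasome gene transcription, was found at 13 (30.2%), against 14.2% of all. The ETS motif (CCGGAAGT) was found at 8 (18.6%), against 6.31%, and the CCAAT box (CCAAT) at 20 (46.5%), against 36.0%. Shares were nearer to those of all windows for the gamma-activated site (TTCNNNGAA), at 5 (11.6%) against 7.10%, and for the TATA box (TATAAA), at 5 (11.6%) against 9.71%. The motif of the nuclear respiratory factor was found at 1 (2.33%), against 1.77%, and that of NF-kappaB at none, against 0.199%. Different motifs overlapped in none of these windows, and a match describes letters and not a bound site. The base composition was like that of other promoters. The median GC content was 62% for proteasome genes and 63% for the others, and the median ratio of observed to expected CpG was 0.769 and 0.767.

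The first comparison was of proteasome promoters with other promoters in the control cells. In sgNeg H3K27Ac, 48 of 49 proteasome genes had a promoter peak (97.96%, 95% Wilson interval 89.3 to 99.6), where 81.2% of all promoters had one. In sgNeg H3K4me3, 48 of 49 had a peak as well, against 70.4% of all promoters. The missing gene was PSMA8 in both lists, the alpha subunit of the spermatoproteasome, and its nearest peak lay 1905 bp from a start for H3K27Ac and 2176 bp for H3K4me3. For H3K27Ac, windows moved by 20 kb to lower and higher coordinates held a peak at 77.6% and 79.6% of proteasome genes. Other genes had 61.5% and 61.6% there, so the excess in share was about as large away from the promoters. Wilson intervals cover counting error only.

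**Figure D1:**
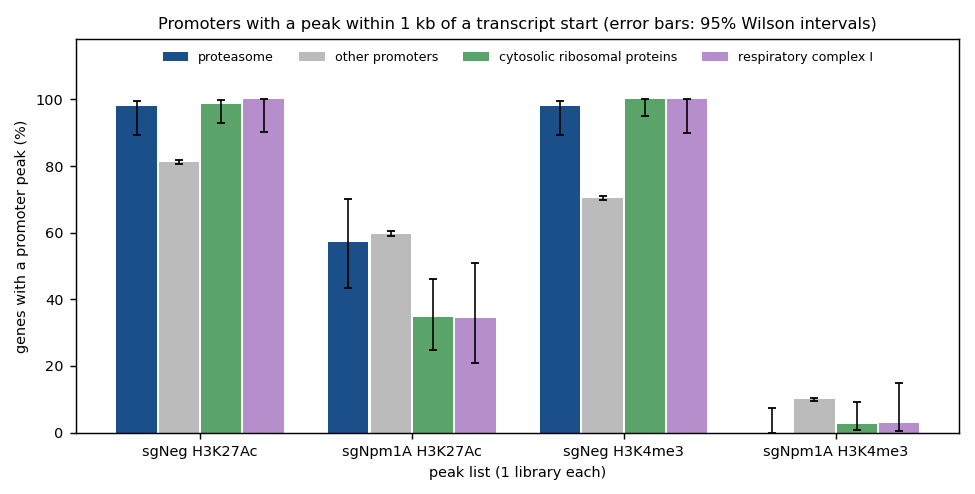
Share of genes (%) with a promoter peak in each of the 4 lists, for 49 proteasome genes, all other autosomal protein-coding genes, 75 cytosolic ribosomal protein genes and respiratory complex I genes, with 95% Wilson intervals as error bars. Proteasome genes stand at 97.96% in both sgNeg lists, 57.1% in sgNpm1A H3K27Ac and 0% in sgNpm1A H3K4me3.

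The peaks of proteasome genes were high within their lists. The median percentile was 98.6 for sgNeg H3K27Ac, against 93.2 for other promoters, and 98.97 for sgNeg H3K4me3, against 88.8. These medians count a promoter without a peak as 0. Among promoters with a peak the gap was smaller, 98.6 against 96.5 for H3K27Ac and 99.02 against 97.4 for H3K4me3. For H3K27Ac, 46 proteasome genes (93.9%) were at or above the 95th percentile, against 46.3% of other promoters. For H3K4me3, 45 (91.8%) were there, against 43.8%. The 99th percentile was reached by 12 (24.5%, against 16.1% of others) for H3K27Ac and by 24 (48.98%, against 16.6%) for H3K4me3. The same held for ribosomal protein and respiratory complex I genes, whose medians were 98.6 and 98.3 for H3K27Ac and 99.2 and 98.1 for H3K4me3.

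Among the members, PSMA7, an alpha subunit of the core, had the highest sgNeg H3K27Ac peak, with a fold enrichment of 8.45, a percentile of 99.9 and a width of 4158 bp, at chr20:60715579-60719736 (GRCh37). PSMD12, a non-ATPase subunit, followed with a fold of 7.76 and PSMB10 with a fold of 7.54. The 3 highest for sgNeg H3K4me3 were PSMB4, a beta subunit, and PSMD13, a non-ATPase subunit, both with a fold of 12.5, and the ATPase PSMC5 with a fold of 12.1. The orders of the 2 marks had little in common. Spearman's rho between the sgNeg percentiles of both marks was 0.18 over the 48 genes, which is a description over genes and not over samples. PSMB11, the beta subunit of thymic cortical cells, was the lowest of those with a peak in both, at the 77.0th percentile for H3K27Ac and the 34.4th for H3K4me3. PSMF1 was next to last for H3K27Ac, at 87.8, and high for H3K4me3, at 99.6. PSMD14, the deubiquitinase of the cap, was next to last for H3K4me3, at 85.2, and stood at 98.6 for H3K27Ac.

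The H3K4me3 values could be read as fragment numbers, since every fold enrichment in that list was a whole pileup against 1 constant background of 3.81 fragments, within a tolerance of 0.02. Over the 48 proteasome genes with a peak, the summit held from 14 to 59 fragments, with a median of 40.5. The extremes were PSMB11 with 14 fragments (exact 95% Poisson interval 7.65 to 23.5) and PSMB4 and PSMD13 with 59 each (44.9 to 76.1). PSMC5 had 57. The lowest pileup listed anywhere in sgNeg H3K4me3 was 11. The intervals are wide, so that the order of genes between the quartiles, 33 and 49.25 fragments, is not resolved at this depth.

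**Figure D2:**
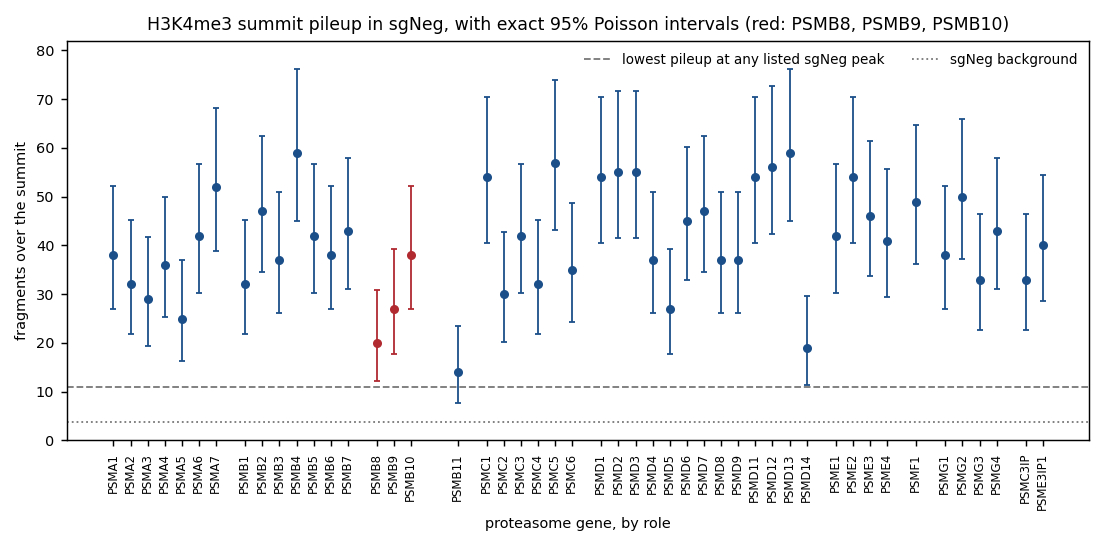
Fragments over the H3K4me3 summit in sgNeg for the 48 proteasome genes with a peak, by role, with exact 95% Poisson intervals. The dashed line is the lowest pileup of any listed peak, 11 fragments, and the dotted line is the background of 3.81, and the members lie between 14 and 59.

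Peaks at proteasome promoters were also wide. The median width was 2068.5 bp for sgNeg H3K27Ac, against 1524.5 bp for other promoters, and 1029 bp for sgNeg H3K4me3, against 697 bp. Ribosomal protein genes had wider peaks, 3094 bp and 1431 bp, and complex I genes narrower ones, 1914 bp and 846.5 bp. The widest H3K27Ac peak of a member was at the ATPase PSMC2, 6316 bp, and the widest H3K4me3 peak at PSMB4, 1921 bp, at chr1:151399586-151401506 (GRCh38), which begins just past the transcript start and runs into the gene. The narrowest H3K27Ac peaks were at the catalytic subunits PSMB6, 564 bp, and PSMB7, 574 bp. In 44 of 48 genes the H3K27Ac peak was wider than the H3K4me3 peak, as in 10580 of 12207 other promoters. The median ratio was 1.98, against 2.28 for other promoters. H3K27Ac was listed as broad peaks and H3K4me3 as narrow ones, so the widths of the marks are not like measures. The part of the calling in this ratio was not tested.

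**Figure D3:**
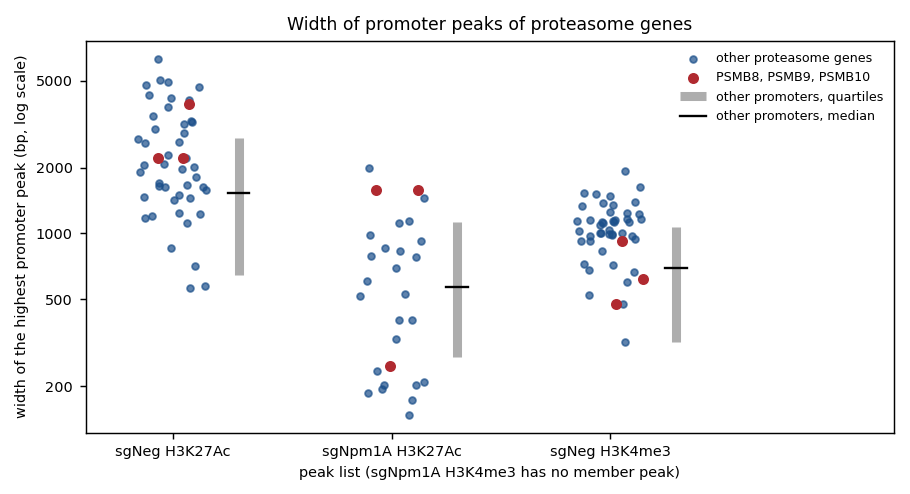
Width (bp, log scale) of the promoter peak of each proteasome gene in the lists that held any, with PSMB8, PSMB9 and PSMB10 in red and the median and quartiles of other promoters beside them. In H3K27Ac, PSMB8 and PSMB9 share 1 peak in each list and appear as 2 points of equal width, and the median over members is 2068.5 bp in sgNeg and 567.5 bp in sgNpm1A.

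Around a single start per gene, sgNeg H3K27Ac peaks covered 89.8% of proteasome genes at the start itself and 97.96% at 200 bp downstream. Other promoters reached 53.9% and 58.003% at these positions. The H3K4me3 cover was low at the start, 8.16% against 11.9%, and rose to 81.6% at 300 bp downstream, against 43.3%. Of the 48 H3K4me3 summits, 41 lay downstream of the nearest start and 7 upstream, and 77.1% of those of other promoters lay downstream. The median distance was 440 bp, against 413 bp for other promoters.

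**Figure D4:**
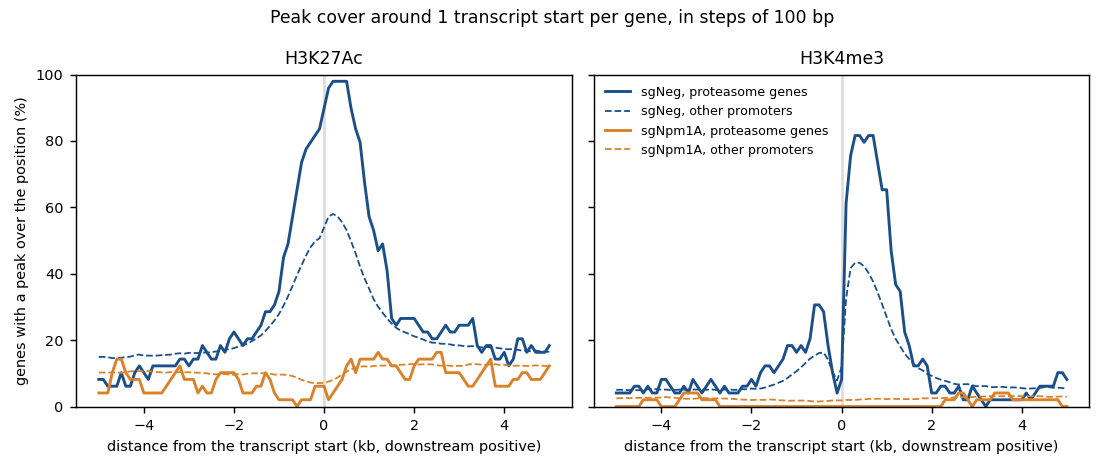
Share of genes (%) with a peak over each position from 5 kb upstream to 5 kb downstream of 1 transcript start per gene, for proteasome genes (solid) and other promoters (dashed) in sgNeg and sgNpm1A. The sgNeg cover of proteasome genes rises to 97.96% for H3K27Ac and 81.6% for H3K4me3, and in sgNpm1A it stays at or below 16.3% and 4.08%.

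The next comparison asked how these promoters were listed with the guide RNA against mtNPM1. In sgNpm1A H3K27Ac, 28 of 49 proteasome genes had a promoter peak (57.1%, 95% Wilson interval 43.3 to 70.0), where 59.7% of all promoters had one. The count rests on the number of annotated starts, a median of 8 per proteasome gene and 5 per other gene. With the canonical start alone it was 14 (28.6%), against 33.96% of other promoters, and with the start of the gene record 13 (26.5%), against 33.9%. In sgNpm1A H3K4me3, none of the 49 had a peak, which allows a share of up to 6.12%, where 9.93% of all promoters had one. In bulk chromatin, fewer cells with a mark and less of it per cell cannot be told apart.

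The sgNpm1A lists showed little preference for promoters in general, and this moves with each sgNpm1A value here. With windows moved 20 kb to lower or to higher coordinates, 57.6% and 57.3% of other genes had a sgNpm1A H3K27Ac peak, near the 59.7% at their promoters. The proteasome genes had 32 and 34 there, against 28 at their promoters. For sgNpm1A H3K4me3, 13.6% and 13.3% of other genes and 3 and 4 of the proteasome genes had a peak in the moved windows. In sgNeg the moved windows held fewer peaks than the promoters, at 61.5% and 61.6% of other genes for H3K27Ac and at 33.3% and 32.8% for H3K4me3, with 38 and 39 and with 14 and 14 of the proteasome genes. The part of library quality in the sgNpm1A values was not tested.

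For H3K27Ac, the 28 genes with a sgNpm1A peak were all among the 48 with a sgNeg peak, so that 20 genes had a peak in sgNeg alone. The share of sgNeg promoters that also had a sgNpm1A peak was 58.3%, against 67.3% of other promoters. It was lower among ribosomal protein genes, 35.1%, and complex I genes, 34.3%. The percentile was lower in sgNpm1A in 47 of the 48 genes, where 77.7% of all promoters with a peak in either list were lower. The median change was −69.9 percentile points, against −18.4 for other promoters, −97.8 for ribosomal protein genes and −97.1 for complex I genes. Since a high sgNeg percentile leaves more room to be lower, genes were also compared at like sgNeg percentiles. Among genes at the 98th to 99th percentile in sgNeg, 11 of 22 proteasome genes (50%) and 59.8% of others had a sgNpm1A peak. At or above the 99th percentile these were 8 of 12 (66.7%) and 58.5%, and from the 95th to the 98th 7 of 12 (58.3%) and 64.2%.

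The sgNpm1A H3K27Ac peaks of proteasome genes were low in their list and narrower than in sgNeg. Their median width was 567.5 bp, like the 567 bp of other promoters in this list. No proteasome gene was at or above the 95th percentile, against 5.87% of other promoters, and the 28 peaks had a median percentile of 54.8, against 69.1. All 28 were narrower than the sgNeg peak, as were 7424 of 10473 other promoters with a peak in both lists. The median width ratio was 0.197, against 0.441 for other promoters. The highest peak of both lists overlapped in 16 of the 28 genes (57.1%), against 38.04% of other promoters. At the single start per gene, sgNpm1A peaks covered 6.12% of proteasome genes and 7.13% of others, and the highest cover within 5 kb was 16.3%, at 1200 bp downstream.

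**Figure D5:**
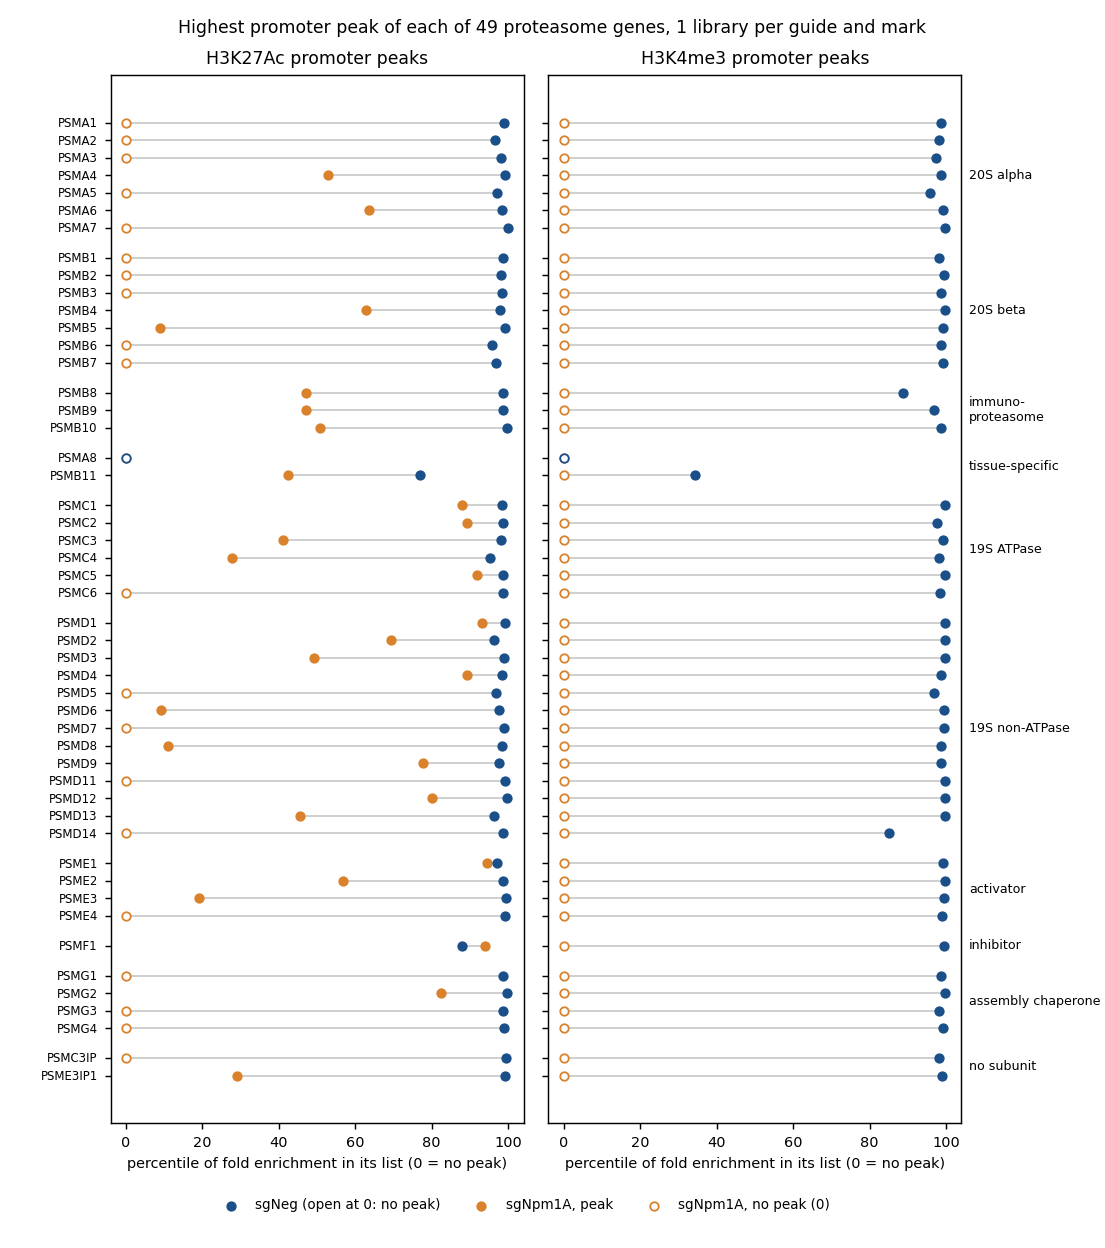
Percentile of the promoter peak of each of the 49 proteasome genes, by role, in sgNeg and in sgNpm1A, where open points at 0 have no peak. For H3K27Ac 47 genes lie lower in sgNpm1A, PSMF1 lies higher and PSMA8 has no peak, and for H3K4me3 every sgNpm1A point is at 0.

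By role, the sgNpm1A H3K27Ac counts can be read against the 59.7% of all promoters. Of the core, 2 of 7 alpha genes (PSMA4 and PSMA6) and 2 of 7 constitutive beta genes (PSMB4 and PSMB5) had one. Of the cap, 5 of 6 ATPase genes, all but PSMC6, and 9 of 13 PSMD genes, grouped by symbol as non-ATPase genes, had one. The PSMD genes without one were PSMD5, PSMD7, PSMD11 and PSMD14. The PSMG genes had 1 of 4, at PSMG2. The groups are small, the share among 7 genes has a Wilson interval from 8.22 to 64.1%, and genes with more annotated starts have wider windows. With the canonical start alone, the counts were 2 of 7 alpha, 1 of 7 beta, 2 of 6 ATPase and 3 of 13 non-ATPase genes, shares from 14.3 to 33.3%, in place of 28.6 to 83.3% with all starts, and 33.96% of other promoters had a peak at this start.

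The highest sgNpm1A H3K27Ac percentiles were those of the activator PSME1 (94.5), the inhibitor PSMF1 (94.02) and PSMD1 (93.0), a scaffold of the cap. Their peaks were 403, 515 and 148 bp wide. The PSMD1 peak, at chr2:232017125-232017272, did not overlap its sgNeg peak, at chr2:231921282-231922518 (GRCh37). PSMF1 was the only gene whose percentile was higher in sgNpm1A than in sgNeg, 94.02 against 87.8, with a fold of 3.63 against 3.25 and a width of 515 bp against 710 bp. PSMC5 came next, at 91.8. Its peak of highest fold was the widest such sgNpm1A peak of a member, 1987 bp, against 5033 bp in sgNeg. The widest peak in its windows measured 5253 bp in sgNpm1A and 5409 bp in sgNeg. At its canonical start the sgNpm1A peak was that of 5253 bp, at 85.1, so PSMC5 was not narrower there. PSMA7, the highest in sgNeg, had no sgNpm1A peak, and neither did PSMA8. PSMD12 stood at 80.0, PSMC2 at 89.1, PSMB4 at 62.9 and PSMD13 at 45.6. With canonical starts alone, PSME1, PSMF1, PSMC5, PSMD12 and PSMB4 kept a sgNpm1A peak. PSMD1, PSMC2 and PSMD13 had none, with the nearest 2659, 3111 and 11958 bp away.

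The activators of the core differed among themselves. PSME1 and PSME2, which form the interferon-inducible PA28 cap, had sgNeg H3K27Ac percentiles of 97.1 and 98.6 and sgNpm1A percentiles of 94.5 and 56.7. PSME3, the nuclear PA28 gamma, was at 99.4 in sgNeg and at 19.1 in sgNpm1A. For PSME2 and PSME3 the sgNeg and sgNpm1A peaks did not overlap. PSME4, the PA200 activator, was at 99.1 in sgNeg and had no sgNpm1A peak. With canonical starts alone, PSME1 was the only activator with a sgNpm1A peak. Their sgNeg H3K4me3 percentiles were all at least 99.06, with 42 fragments for PSME1, 54 for PSME2, 46 for PSME3 and 41 for PSME4. The PSME2 summit lay 1452 bp upstream of its start. That peak is also the highest of RNF31, which starts 265 bp away on the other strand.

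For H3K4me3, all 48 genes with a sgNeg peak had none in sgNpm1A, where 93.8% of all promoters with a peak in either list were lower in sgNpm1A. The median change was −98.97 percentile points, against −80.0 for other promoters. Strong sgNeg promoters seldom had a sgNpm1A H3K4me3 peak among other genes either. The share was 6.497% from the 95th to the 98th percentile, 3.07% from the 98th to the 99th and 4.21% at or above the 99th, and 24.4% below the 90th. Against these, the proteasome genes had 0 of 5, 0 of 16 and 0 of 24. Widening the promoter to 2 kb on either side still gave none, against 15.99% of other promoters. The nearest sgNpm1A H3K4me3 peaks lay 2201 bp from PSMB11 and 2570 bp from PSMB10, and the median distance was 13.5 kb, against 12.4 kb for other genes. Ribosomal protein genes had a peak at 2 of 75 and complex I genes at 1 of 34.

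The depth of the sgNpm1A H3K4me3 library bears on this count. Its background was 2.93 fragments and its lowest listed pileup 10. At that background, the fold enrichments seen in sgNeg would be pileups of 11.3 fragments for the lowest gene and 32.9 for the median gene, at or above 10 for all 48. Counting error could still take the lowest genes under that limit. The reckoning takes the sgNeg enrichment as unchanged, and a background pileup is not a read total. The part of depth was not tested. Other promoters were also listed less often in sgNpm1A, and the part of lower enrichment over the whole library was not tested.

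The immunoproteasome genes were then set against the other 46. In sgNeg H3K4me3 they stood toward the lower and narrower end, with a median percentile of 96.8 against 99.1 for the others. PSMB8 had 20 fragments at the summit (exact 95% Poisson interval 12.2 to 30.9), PSMB9 had 27 (17.8 to 39.3) and PSMB10 had 38 (26.9 to 52.2). Their percentiles were 88.8, 96.8 and 98.8, and only 3, 4 and 18 of the other 46 genes were lower. The PSMB8 peak, at chr6:32844186-32844661 (GRCh38), lies just downstream of the sequence printed for PSMB8. It lies upstream of the further PSMB8 start, the canonical one, with its summit 226 bp before that start. The widths were 476, 927 and 618 bp, against a median of 1093 bp for the other members.

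Their constitutive counterparts had 42 fragments for PSMB5, 38 for PSMB6 and 43 for PSMB7. The ratio of PSMB8 to PSMB5 was 0.476 (exact 95% interval 0.265 to 0.829, counting error only). It was 0.711 for PSMB9 to PSMB6 (0.417 to 1.19) and 0.884 for PSMB10 to PSMB7 (0.556 to 1.40). PSMB8 was thus below its counterpart by more than counting error, and the other 2 pairs were not resolved at this depth. PSMB6 had the narrowest peak of the 6, 475 bp, so that the width did not separate the immunoproteasome genes from every counterpart. The PSMB9 peak, at chr6:32852750-32853676 (GRCh38), lay on the side of TAP1, a peptide transporter gene that starts 488 bp away on the other strand, and is the promoter peak of both genes.

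In sgNeg H3K27Ac, the immunoproteasome genes were not lower. PSMB10 was the third of 48, at 99.7, with a peak of 3910 bp that covered the start. PSMB8 and PSMB9 were both at 98.7, because transcripts annotated for PSMB9 start beside PSMB8 and both genes then have the same peak of 2222 bp, at chr6:32811223-32813444 (GRCh37). At its canonical start PSMB9 had a peak of its own of 2679 bp, at the 97.2th percentile. The counterparts were at 99.2 (PSMB5), 95.8 (PSMB6) and 96.9 (PSMB7). PSMB8 ranked high for H3K27Ac and low for H3K4me3 in the same cells, if both libraries are of the same line.

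In sgNpm1A H3K27Ac, all 3 immunoproteasome genes had a peak, against 25 of the other 46 (54.3%, 95% Wilson interval 40.2 to 67.8). PSMB8 and PSMB9 shared a peak of 1588 bp at the 47.2th percentile, and PSMB10 had one of 248 bp at the 50.8th. Of the counterparts, PSMB5 had a peak of 235 bp at the 9.05th percentile, and PSMB6 and PSMB7 had none. With canonical starts alone, the 3 genes still had a peak, PSMB9 now at the 43.5th percentile, against 11 of the other 46 (23.9%) and 33.96% of other promoters. The peaks were weak. At a q-value under 0.01, none of the 3 had a sgNpm1A peak, against 11 of all 49 (22.4%) and 31.96% of other promoters. A count of 3, of which 2 share a peak, is too small to set the group apart. No immunoproteasome gene had a sgNpm1A H3K4me3 peak.

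Genes that act with the proteasome were listed by function. Of 17 autosomal partners and regulators, all had a peak in both sgNeg lists, against 81.2% and 70.4% of all promoters, and 10 (58.8%) in sgNpm1A H3K27Ac, against 59.7%. The highest peaks of both H3K27Ac lists overlapped in 3 of these 10. UBE3C, a ubiquitin ligase at the proteasome, had a high sgNpm1A H3K27Ac percentile, 98.1, against 99.5 in sgNeg. NFE2L1, the factor that raises proteasome transcription when the proteasome is inhibited, was at 38.8 against 99.2, and the maturation factor POMP had no sgNpm1A peak, against 98.9. Of 9 antigen presentation and interferon genes, 9 had a peak in both sgNeg lists, 8 in sgNpm1A H3K27Ac (88.9%, 95% Wilson interval 56.5 to 98.01, all but TAP2) and none in sgNpm1A H3K4me3. NLRC5, the transactivator of MHC class I genes, was at 98.5 in sgNpm1A H3K27Ac, against 98.9 in sgNeg, with a peak of 457 bp against 9893 bp. TAP1 was at 88.9 against 97.2. In none of these 8 genes, NLRC5 and TAP1 included, did the highest sgNpm1A peak overlap the highest sgNeg peak, against 38.04% of other promoters. Near percentiles in both lists are thus not those of the same peak.

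Several proteasome genes share a promoter with a neighbour on the other strand, within 1 kb from start to start. By the GRCh37 starts there were 9 of 49 (18.4%), against 10.1% of other genes, and by the GRCh38 starts 10 (20.4%), against 13.9%. PSME4 starts 120 bp from ACYP2, PSMA2 starts 202 bp from MRPL32, and PSMC5 starts 232 bp from FTSJ3. PSMA7 starts 375 bp from SS18L1, and PSMD13 starts 634 bp (GRCh37) or 45 bp (GRCh38) from SIRT3. In each of these pairs both genes had the same highest sgNeg peak for both marks, so that such a peak cannot be given to 1 of the 2 genes.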

How the data were processed

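ChIP-seq peak lists of 4 OCIAML3 libraries, 1 per guide RNA and mark, were analysed, grouped by sample title. The submitters' processing notes name bcl2fastq 2.17, Trimmomatic 0.33, Bowtie 1.1.2, MACS2 2.1.0, deepTools and hg38. The authors called peaks in each library by itself. The limit of calling was not given in the sources used here. The deposited fold enrichment, a ratio, compares pileup with background, at the summit for H3K4me3 (narrow peaks) and averaged over the region for H3K27Ac (broad peaks). The deposited −log10 q-value was used for stricter limits only, and the deposited −log10 p-value, score and summit offset describe the same peaks (the offset placed summits). Tn5 was used to tagment the chromatin, and no shift of cut positions was stated by the authors.

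H3K27Ac peaks end on chromosome 1 at 249218478 and 249212461, beyond the length of chromosome 1 in hg38, and H3K4me3 peaks on chromosome 17 at 83201880 and 83201881, past its end in hg19. Each mark was therefore read on its own build, and no coordinates were converted. Starts were those of GENCODE 44 mapped to GRCh37 (a median of 8 per proteasome gene and 5 per other gene) for H3K27Ac, and of RefSeq GRCh38.p14 (a median of 1) for H3K4me3, where 349 genes without a strand were left out and 6 members (PSMA7, PSMB1, PSMB6, PSMB7, PSMD4 and PSMG3) had the gene record as the only start. The single start per gene was the canonical one for H3K27Ac and the gene record for H3K4me3. An overlap was at least 1 bp, checked with bedtools 2.31.1. Counts and medians were computed with Python 3.11.15, pandas 2.3.3, numpy 2.4.6 and scipy 1.17.1, and the scripts were tested on simulated data. With 1 library per group no test was made. Intervals cover counting error at 95%, and the share that a count of 0 allows is 3 counts of the total.

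The members and gene lists were chosen with earlier results of these data known. Values were given for every member by role, and named for PSMB5 to PSMB10, the PSME genes, PSMF1, the 3 highest and the widest of each sgNeg list, those without a sgNeg peak, the 3 highest of sgNpm1A H3K27Ac and any gene higher in sgNpm1A. PSMB11, PSMD14, PSMC5 in sgNpm1A and the partner genes were named after their values were seen. UBA1, on the X chromosome, was left out of the partners. The sgNpm1A H3K4me3 result of the partners is not reported here. Alternatives were half-windows of 500 bp and 2 kb, q-values under 0.01 and 1e-05, the gene record alone, members without PSMC3IP and PSME3IP1, windows moved by 20 kb, an overlap of 100 bp and the widest peak, and, chosen after seeing the data, the canonical start alone.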

Additional observations from a re-analysis of the deposited data

How the results depend on the processing

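No paired analysis was possible because each group had 1 library, which also leaves no replicate to leave out. Under the alternatives, 5 values turned direction and 23 moved beyond the interval or 1.5-fold limit set for them. The other 116 stayed within it, though some of these limits are wide.

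In sgNeg H3K27Ac, windows moved by 20 kb gave a median percentile of 58.45 and 73.33, against 98.57. The difference in share between proteasome genes and other promoters, 16.78 percentage points, was 20.83 with a half-window of 500 bp, 33.67 and 42.89 at a q-value under 0.01 and 1e-05, and 24.76 with canonical starts. With windows moved by 20 kb to lower and higher coordinates it was 16.05 and 17.95. In sgNpm1A H3K27Ac, the count of 28 was 11 and 0 at these q-values, 13 with the gene record and 14 with canonical starts, and the immunoproteasome count of 3 was 0 and 0 at these q-values. The median percentile of 19.06 was 32.86 and 50.08 with moved windows, 41.06 with a half-window of 2 kb, 10.91 with an overlap of 100 bp, and 0 with 500 bp, at both q-values, with the gene record and with canonical starts. The difference of −2.518 points turned to 1.09 with a half-window of 2 kb and to 7.694 and 12.12 with moved windows, and was −9.511 at a q-value under 0.01, −7.328 with the gene record, −5.391 with canonical starts and −4.879 with an overlap of 100 bp, so that no direction is given for it.

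In sgNeg H3K4me3, moved windows gave 14 and 14 genes, median percentiles of 0 and 0, and differences of −4.7 and −4.256 in place of 27.62, which was 31.5 with 500 bp and 40.87 at 1e-05. In sgNpm1A H3K4me3, moved windows gave 3 and 4 genes, and the difference of −9.958 was −15.99 with 2 kb and −1.693 at 1e-05. Moved windows, stricter q-values and fewer starts change these values by construction. Other causes were not tested.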
